A study of Mus musculus with 89 samples.

Results

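Intraflagellar transport and transition zone genes were followed through 89 bulk RNA-seq libraries of mouse brain tissue. The 46 genes were taken by symbol from a list, and all 46 are present among the 16133 genes of the series and in each of its 3 tables, which hold 14964 genes for the Klotho mice, 13662 for the choroid plexus and 14440 for the hippocampus. They were divided by role into 12 genes of the IFT-B complex, 6 of the IFT-A complex, 4 motor genes, 7 genes of the BBSome, 3 of its assembly and recruitment, 2 ARL GTPases and 12 genes of the transition zone.

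Aged wild-type C57BL/6 mice received repeated tail-vein injections over 25 days. They were given 100 µL young serum (YS), 100 µL young serum depleted of extracellular vesicles with ExoQuick (YDS), or sham injections. The methods of the study name only males, whereas its figure legends give an equal sex distribution for the sequenced mice. Choroid plexus was sequenced from 12 YS, 14 YDS and 8 sham mice and hippocampus from 14 YS, 14 YDS and 10 sham mice, and 34 mice gave both tissues. The arm of a mouse stands only in the column names of the deposited tables and not in the sample labels, so all values by arm rest on those names. The other animals were 4 knockouts of α-Klotho (Klko) with 4 wild-type mice of the same age (WT-y), both 2 months old, and 5 Klotho heterozygotes (Klhet) with 4 wild-type mice of the same age (WT-o), both 9 months old. The knockout is not described as limited to a tissue or cell type. The labels give the tissue of the Klotho mice as brain and describe extraction from cortex, whereas the study's methods name the hippocampus.

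A cilium is built and kept by trains of IFT-B and IFT-A particles, which kinesin-2 carries to the tip and cytoplasmic dynein 2 carries back. The BBSome rides on these trains and moves membrane proteins out of the cilium, and the transition zone at the base is the gate that decides which proteins enter. The epithelium of the choroid plexus bears tufts of cilia on the side that faces the cerebrospinal fluid, while most neurons and astrocytes of the hippocampus carry a single primary cilium, a receptor-rich antenna for signals such as hedgehog, somatostatin and dopamine.

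Genes of cilia are commonly controlled by RFX transcription factors, which bind the X-box, an inverted repeat near the start of transcription. The promoters of the members were therefore read, in a window of 300 bases with 250 before and 50 after the annotated start, from RefSeq on GRCm38.p6. An entry was found for 42 of the 46 members, and Ift80, Ift81, Ift122 and Tmem67 had none. The letters GTTNCC, followed after 0 to 3 bases by GGNAAC, were searched on both strands. They occurred in 5 of the 42 promoters (11.9%), those of Ift57, Bbs7, Tctn3, Mks1 and Tctn1, against 253 of 27025 promoters of all genes (0.936%). The following 4 sequences of 80 bases are shown because they hold such a match before the start of a member. Capitals mark the match.
Ift57, chr16:49699201-49699280, plus strand: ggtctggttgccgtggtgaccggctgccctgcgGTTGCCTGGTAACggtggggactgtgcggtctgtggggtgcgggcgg
Bbs7, chr3:36613464-36613543, minus strand: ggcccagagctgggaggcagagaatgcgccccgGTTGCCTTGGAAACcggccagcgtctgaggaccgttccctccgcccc
Tctn3, chr19:40612325-40612404, minus strand: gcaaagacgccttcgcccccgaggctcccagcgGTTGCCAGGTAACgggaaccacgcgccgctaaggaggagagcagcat
Mks1, chr11:87853135-87853214, plus strand: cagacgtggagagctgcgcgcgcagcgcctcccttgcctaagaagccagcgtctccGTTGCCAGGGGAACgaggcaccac
The match lies 60 to 48 bases before the start in Ift57, 121 to 108 in Bbs7, 140 to 128 in Tctn3 and 24 to 11 in Mks1. In Tctn1 it lies behind the start and is not printed.

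The single element GTTGCC, searched on either strand and contained in the 4 matches printed above, occurred in 21 of the 42 promoters, against 3821 of 27025 promoters of all genes (14.1%). The following 3 promoters have no match to the longer motif and are shown in lower case because the results below turn on their genes. Ift74 had the largest excess in choroid plexus over hippocampus, Rpgrip1l the largest fall in Klko mice, and Kifap3 the largest deficit in choroid plexus.
Ift74, chr4:94614411-94614490, plus strand: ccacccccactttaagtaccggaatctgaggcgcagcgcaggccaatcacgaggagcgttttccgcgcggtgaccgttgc
Rpgrip1l, chr8:91313223-91313302, minus strand: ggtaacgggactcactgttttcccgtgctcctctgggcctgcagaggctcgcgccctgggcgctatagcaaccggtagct
Kifap3, chr1:163779503-163779582, plus strand: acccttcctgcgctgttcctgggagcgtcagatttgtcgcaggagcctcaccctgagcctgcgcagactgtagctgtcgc
These 3 stretches are the 80 bases directly before the RefSeq start. On GRCm38 the GENCODE annotation places Ift74 at chr4:94614491-94693229, Rpgrip1l at chr8:91217030-91313262 and Kifap3 at chr1:163779583-163917109, all protein-coding genes. A match is a description of letters and not of a bound factor, and the absence of a match says nothing about one.

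Libraries held 26338890 to 40229041 counted reads in the Klotho mice, 27165663 to 46836730 in the choroid plexus and 23231524 to 40801000 in the hippocampus. Expression is given as CPM, in which every library is brought to the same total of reads, and fold changes are on the scale of log2(CPM + 0.5), which understates the change of low genes. The test was limma with a trend, two-sided, and p-values were adjusted by Benjamini-Hochberg over all genes of the fit, with a threshold of 0.05 for a call. In the infused mice the markers followed the tissue labels. The 15 markers of choroid plexus epithelium summed to between 150144 and 269243 CPM in choroid plexus, and the 7 of them listed for the hippocampus summed to between 71.2 and 2666 CPM there. Neuronal markers summed to between 10.7 and 375 CPM in choroid plexus (7 genes) and between 12580 and 16244 CPM in hippocampus (8 genes). Markers of multiciliated and ependymal cells summed to between 467 and 902 CPM in choroid plexus (13 genes) and between 43.3 and 78.4 CPM in hippocampus (11 genes). These sums thus run over unequal sets of genes. In bulk tissue, fewer cells of a type and less RNA per cell cannot be told apart. Each library is 1 mouse, so the p-values among Klotho mice and among arms of a tissue measure the spread between mice. The main fit between the tissues treats all its libraries as independent, although many of the mice gave both tissues. A fit with the mouse as a replicate block was run as an alternative.

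The first question was how the members differ between the ciliated choroid plexus and the hippocampus. Of the 46 members, 41 were higher and 4 lower in choroid plexus than in hippocampus, and 1 (Ift140) was not called, in a fit of 72 libraries with the arm as covariate. Over the 12609 genes in both tables, 46.6% were called higher and 44.2% lower. In 27 members every choroid plexus library lay above every hippocampal library, where 19% of all genes did so, and in 2 members every one lay below, where 21.1% of all genes did so. The median log2 fold change was 1.35 over the members and 0.04 over all genes. The levels come from 2 tables, each scaled to the total of its own libraries, and other scaling factors moved the median of all genes to 0.11 (TMM) and 0.15 (RLE).

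**Figure D1:**
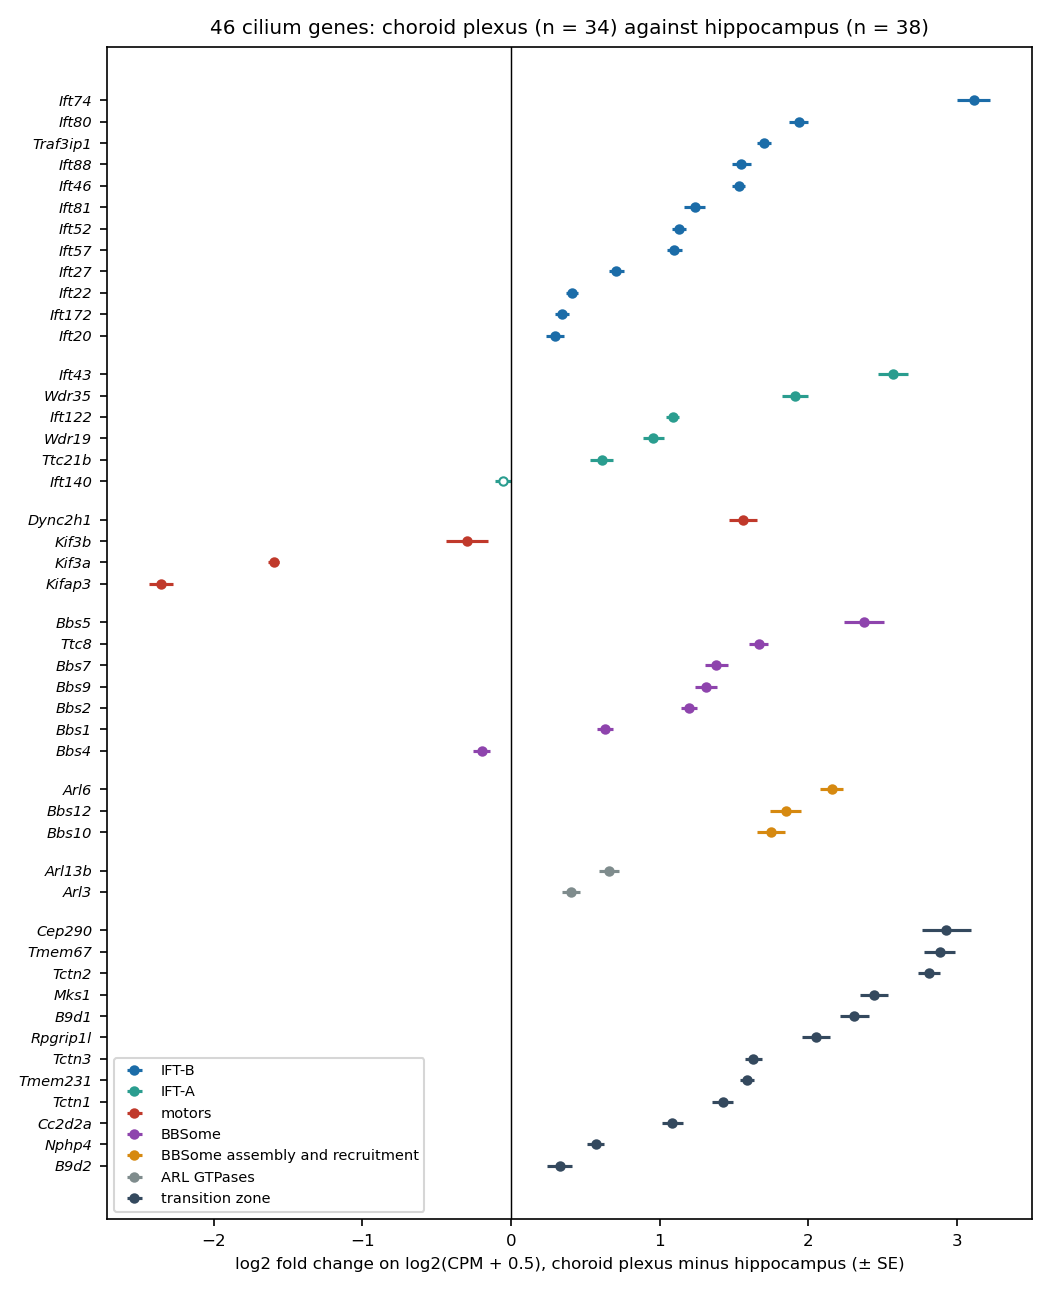
Log2 fold change of each of the 46 members in choroid plexus over hippocampus (x axis, log2 of CPM + 0.5, with its standard error as a bar), ordered within the role of the gene. Most points lie to the right of 0, the IFT-B gene Ift74 farthest at 3.11, and the kinesin-2 subunits Kif3a and Kifap3 lie to the left at -1.60 and -2.36.

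All 12 IFT-B genes were higher in choroid plexus, with a median log2 fold change of 1.18. Ift74, which together with Ift81 binds the tubulin cargo of the train, ranged over 71.4, 84.5 and 104 CPM (lowest, median and highest) in choroid plexus and over 4.10, 8.59 and 23.0 CPM in hippocampus. The 2 tissues did not overlap, and the log2 fold change was 3.11 (SE 0.11). Ift88, a subunit without which mouse cells form no cilia, ranged over 30.3, 38.2 and 46.7 CPM in choroid plexus and over 9.00, 12.4 and 19.2 CPM in hippocampus, again without overlap and with a log2 fold change of 1.55. The smallest differences of the complex were those of Ift20, which also serves at the Golgi (0.30), Ift172, a large peripheral subunit (0.34), and Ift22 (0.41). These 3 and Ift27 overlapped between the tissues, and the other 8 did not.

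Among the IFT-A genes, whose complex drives the return to the base and carries receptors into the cilium, 5 of 6 were higher in choroid plexus, with a median of 1.02 over all 6. Ift43, the smallest subunit, ranged over 15.0, 19.3 and 40.6 CPM in choroid plexus and over 1.83, 3.31 and 5.90 CPM in hippocampus, a log2 fold change of 2.57 (SE 0.10) without overlap. Wdr35, another subunit, was at 90.5, 197 and 239 CPM in choroid plexus and at 30.9, 44.8 and 63.5 CPM in hippocampus, also without overlap. Ift140, a core subunit, stood at 36.1 ± 5.10 CPM in choroid plexus and 37.6 ± 5.83 CPM in hippocampus (SD, n = 34 and 38), and its log2 fold change of -0.05 (SE 0.05, adjusted p = 0.327 with limma) was within the spread of the mice. It was called under 3 alternatives, in the lower-numbered mice defined below, without the 8 libraries that stood apart and with the length trend removed.

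The motors split. Dync2h1, the heavy chain of cytoplasmic dynein 2, was higher in choroid plexus, at 59.6 ± 17.6 CPM against 19.7 ± 5.75 CPM in hippocampus (SD, n = 34 and 38), a log2 fold change of 1.56 (SE 0.10), with overlapping ranges. The 3 subunits of the heterotrimeric kinesin-2 were called lower. Kifap3, the accessory subunit that joins motor and cargo, ranged over 27.2, 52.8 and 62.9 CPM in choroid plexus and over 143, 237 and 370 CPM in hippocampus, a log2 fold change of -2.36 (SE 0.08). Kif3a, a motor subunit, ranged over 60.7, 69.4 and 79.98 CPM in choroid plexus and over 163, 212 and 287 CPM in hippocampus, a log2 fold change of -1.60 (SE 0.04). Both were separate between the tissues. Kinesin-2 also carries cargo along axons, and the neuronal markers moved in the same direction as these 2 genes (10.7 to 375 CPM in choroid plexus and 12580 to 16244 CPM in hippocampus), whose part in the difference was not tested. Kif3b, the partner of Kif3a in the motor, ranged over 33.2, 133 and 157 CPM in choroid plexus and over 90.1, 111 and 142 CPM in hippocampus, and its log2 fold change of -0.29 (SE 0.14, adjusted p = 0.0463 with limma) did not hold. It was -1.29 in lower-numbered mice (labels C401 to C418 for choroid plexus and H401 to H418 for hippocampus) and 0.33 in higher-numbered mice (C419 to C440 and H419 to H440), both called, and it was not called with the mouse as a replicate block (-0.29, adjusted p = 0.0666), with TMM or RLE factors, with edgeR on whole reads, with the length trend removed or in sham mice alone.

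Of the 7 BBSome genes, 6 were higher in choroid plexus and 1 lower, with a median of 1.31. Bbs5, the subunit with lipid-binding domains, ranged over 18.1, 21.6 and 26.5 CPM in choroid plexus and over 1.24, 3.49 and 13.3 CPM in hippocampus (log2 fold change 2.37, SE 0.14). Its values did not overlap between tissues although those of the hippocampus alone spread over more than those of any other member, with a coefficient of variation of 73.3%. Bbs4, a subunit that also binds centriolar satellites, was the exception, at 27.4, 33.8 and 39.4 CPM in choroid plexus and 25.5, 39.3 and 57.9 CPM in hippocampus. The ranges overlapped, and the log2 fold change of -0.20 (SE 0.06, adjusted p = 0.0012 with limma) changed sign, to 0.10, once the length trend was removed. The 3 genes of BBSome assembly and recruitment were all higher, with a median of 1.85. They are Bbs10 and Bbs12, members of the chaperonin-like assembly machinery, and Arl6, the GTPase that brings the BBSome to membranes and had 44.5 to 68.5 CPM in choroid plexus and 7.20 to 23.6 CPM in hippocampus. Arl3, the GTPase that releases lipid-anchored cargo inside the cilium (0.40), and Arl13b, its activator (0.66), were higher by less, and both overlapped between the tissues.

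All 12 transition zone genes were higher in choroid plexus, with a median of 1.84, and 8 of them did not overlap between the tissues. Cep290, the long tether between microtubules and membrane of the gate, ranged over 15.0, 54.4 and 70.0 CPM in choroid plexus and over 1.68, 4.84 and 11.1 CPM in hippocampus (log2 fold change 2.93, SE 0.16). Tmem67, the membrane protein meckelin, ranged over 25.6, 31.4 and 36.9 CPM in choroid plexus and over 1.46, 4.13 and 8.42 CPM in hippocampus (2.88, SE 0.10). Tctn2, a tectonic of the same module, ranged over 75.4, 144 and 165 CPM in choroid plexus and over 9.80, 17.4 and 27.7 CPM in hippocampus (2.81, SE 0.07). In these 3 genes the lowest choroid plexus library exceeded the highest hippocampal one. Mks1, a B9-domain protein, ranged over 12.0, 18.9 and 37.1 CPM in choroid plexus and over 1.47, 3.15 and 6.55 CPM in hippocampus (2.44, SE 0.10). B9d1, its partner, ranged over 25.0, 29.8 and 57.3 CPM in choroid plexus and over 3.35, 6.88 and 11.4 CPM in hippocampus (2.31, SE 0.10). B9d2, the third B9-domain protein, differed least of the 12 (0.33) and overlapped between the tissues, and so did Nphp4 (0.57), Cc2d2a (1.09) and Tctn1 (1.42).

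**Figure D2:**
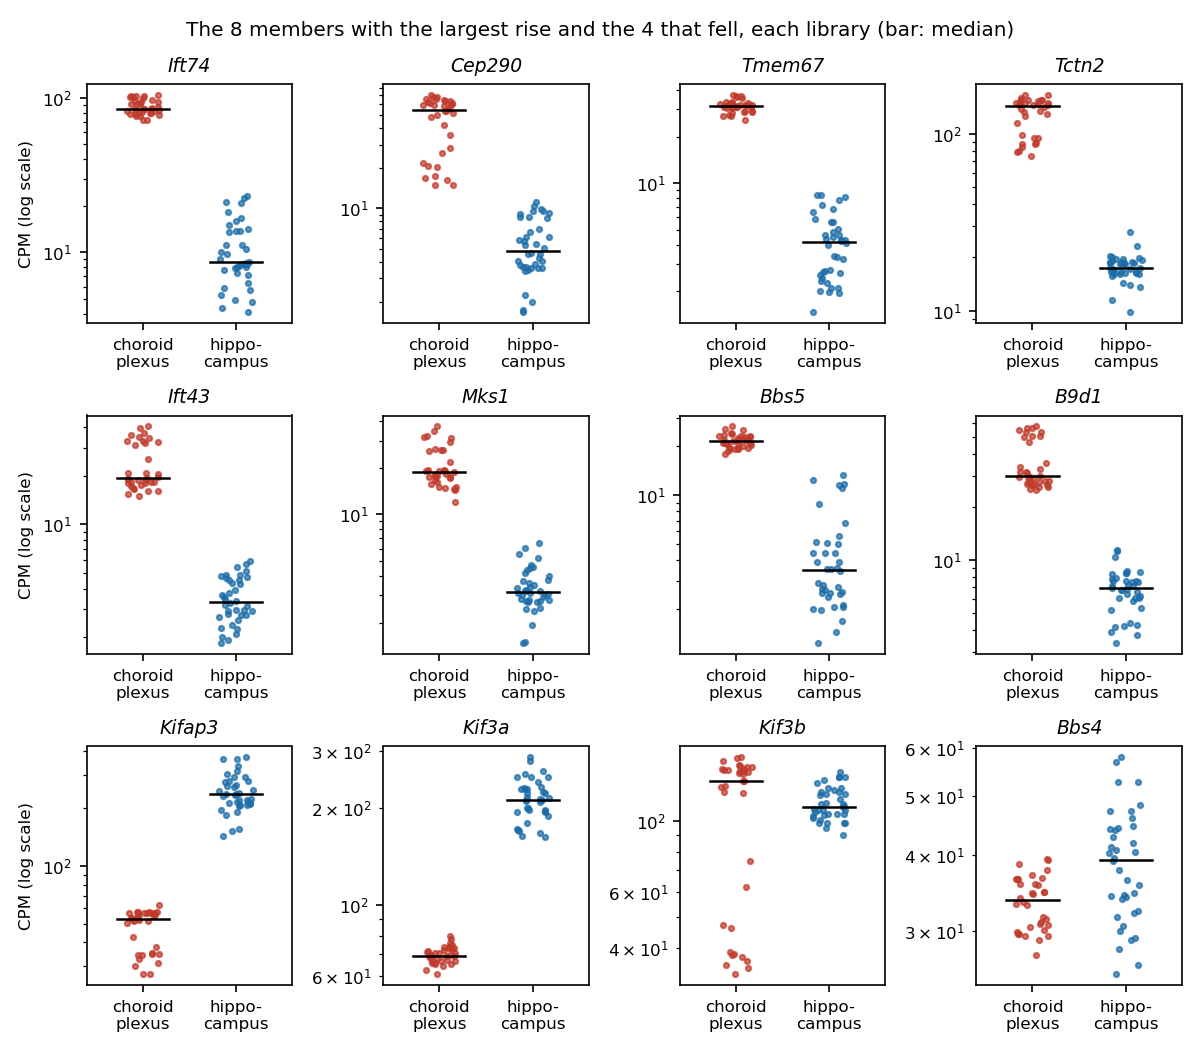
CPM (log axis) of the members with the largest excess and deficit in choroid plexus (left of each pair) and hippocampus (right), with each point 1 library and a bar at the median. Ift74, Cep290, Tmem67 and Tctn2 are separate between tissues, Kifap3 and Kif3a are separate the other way, and Kif3b of the choroid plexus falls into a high and a low cloud that straddle the hippocampal values.

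The same mouse gave both tissues in 34 cases. In 32 members the choroid plexus was higher than the hippocampus in all 34 mice, in 2 members (Kif3a and Kifap3) it was lower in all 34, and in 12 the mice disagreed. The share of all genes that agreed in all 34 mice is not given, so these counts show nothing particular to the members. Without overlap between the tissues, 19% of all genes lay higher and 21.1% lower in choroid plexus. Among the 12 members in which the mice disagreed, Ttc21b, an IFT-A subunit, was higher in choroid plexus in 29 mice, Ift20 in 27, B9d2 in 23, Kif3b in 21, Ift140 in 17 and Bbs4 in 8. With the mouse as a replicate block, 44 members were called, 41 higher and 3 lower, and Kif3b was lost.

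Levels per length, in CPM per kilobase of exon, rank the members within a tissue. In choroid plexus the highest were Arl3 (47.0), Ift74 (32.9), Arl6 (25.4) and Ift20 (25.0), and the lowest was Ttc21b (1.92). In hippocampus the highest were Kifap3 (61.1), Kif3a (59.6) and Arl3 (34.7), and the lowest were Cep290 (0.486), Tmem67 (0.546) and Bbs10 (0.824). Kif3b stood at 20.2 CPM per kilobase in hippocampus, below its partner Kif3a. The coefficient of variation between libraries had a median over the members of 14.2% in choroid plexus and 21.6% in hippocampus. Within choroid plexus it was largest in Kif3b (45.6%), Cep290 (41.1%) and Ift43 (34.5%) and smallest in Kif3a (6.09%).

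Genes outside the 46 that serve the same structures moved between the tissues as follows. Of 12 other IFT, dynein-2 and kinesin-2 genes, 10 were higher and 2 lower in choroid plexus. The higher ones included Dync2li1, a dynein-2 light intermediate chain (2.07), and the lower ones were the neuronal kinesin-2 genes Kif3c (-4.44) and Kif17 (-2.64). Of 23 other transition zone and distal appendage genes, 21 were higher, such as Tmem237 (3.80), and 2 were lower. Of 6 other BBS genes, 4 were higher and 2 lower. All 16 listed ciliary signalling genes were measured in hippocampus but only 11 in choroid plexus, and the rest do not enter the comparison. Of the 11, 5 were higher, such as Tulp3, an adaptor of receptor import (1.93), and Smo, the hedgehog signal transducer (2.03). Another 5 were lower, such as the neuronal ciliary adenylyl cyclase Adcy3 (-3.44) and the receptor Gpr161 (-3.59). Of 39 listed motile cilium genes, 38 were measured in choroid plexus and 30 in hippocampus, so here genes are missing on the hippocampal side. Of the 30 compared, 26 were higher and 2 lower, with a median of 3.35, above that of the members. Examples are Foxj1, the master regulator of motile cilia (4.17), and Tekt1 of the axoneme (5.40). The members with a GTTGCC element numbered 21, of which 19 were higher and 1 lower in choroid plexus, with a median of 1.42. The 21 without it had 18 higher and 3 lower, with a median of 1.198.

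Within the choroid plexus the members varied together. Their first principal component held 85.3% of the variance between the 34 libraries, and the levels differed with the number of the mouse in the labels. What the number stands for is not stated. In the 21 higher-numbered libraries (C419 to C440), compared with the 13 lower-numbered ones (C401 to C418), 30 members had a higher and 16 a lower mean CPM, and every member overlapped. Neither these counts nor the share of the first component are given over all genes, so they show nothing particular to the members. Kif3b averaged 141 CPM in higher-numbered and 51.5 CPM in lower-numbered mice, with ranges of 121 to 157 CPM and 33.2 to 147 CPM. Cep290 averaged 60.5 CPM in higher-numbered and 25.0 CPM in lower-numbered mice, and Rpgrip1l, a scaffold of the transition zone, 82.8 CPM in higher-numbered and 49.1 CPM in lower-numbered mice. Wdr35 and Dync2h1 had the same direction, with 208 and 70.2 CPM in higher-numbered mice and 120 and 42.5 CPM in lower-numbered mice. Ift43, B9d1, Mks1 and Arl3 had the opposite one, with 18.0, 28.2, 17.0 and 96.9 CPM in higher-numbered mice and 33.1, 48.3, 27.4 and 150 CPM in lower-numbered mice. Kif3a was nearly level, with 68.8 CPM in higher-numbered and 71.3 CPM in lower-numbered mice.

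In Kif3b, Cep290 and B9d1, 3 lower-numbered mice stood apart from the other lower-numbered ones. Kif3b had 74.9, 147 and 62.1 CPM in C409, C410 and C411, against 33.2 to 47.3 CPM in the other lower-numbered mice. Cep290 had 42.3, 49.99 and 35.2 CPM there, against 15.0 to 28.2 CPM, and B9d1 had 32.8, 31.7 and 35.7 CPM, against 46.8 to 57.3 CPM. C410 alone reached the range of the higher-numbered mice in Kif3b and Cep290, and C409 and C410 did so in B9d1. Across the 46 members, the log2 difference between higher- and lower-numbered mice was larger in genes with a longer summed exon length (Pearson's r = 0.70 and Spearman's rho = 0.73 with length, across genes of the same libraries, which are not independent replicates). Across all 13457 genes with a length r was 0.45. Both sets of mice hold all arms, with 8 YS, 9 YDS and 4 sham libraries among the higher-numbered and 4 YS, 5 YDS and 4 sham libraries among the lower-numbered. In the hippocampus of the same experiment, 16 members had a higher and 30 a lower mean CPM in higher-numbered mice, and r with length was -0.20. Across all 14225 genes with a length r was -0.11 there, and the counts of direction are again given for the members only.

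**Figure D3:**
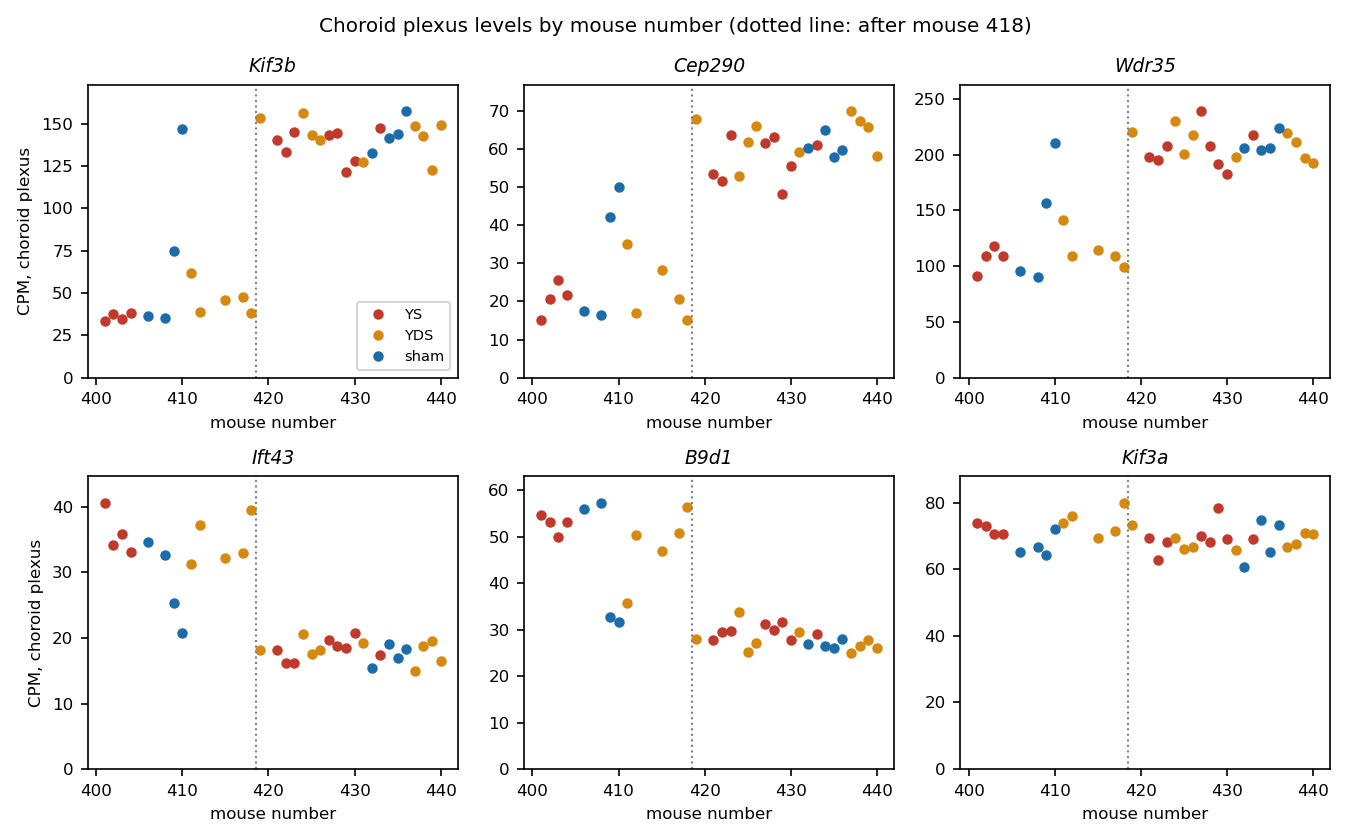
CPM of 6 members in choroid plexus (y axis of each panel) against the number of the mouse (x axis), with points coloured by arm. Kif3b, Cep290 and Wdr35 lie low in most mice left of the dotted line and high to its right, Ift43 and B9d1 do the reverse, and Kif3a stays level.

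In the hippocampus, 5 libraries stood apart from the other 33 on the first principal component of all genes, which held 25.7% of the variance (scores of 0.33 to 0.37 against -0.26 to 0.14). They are the shams H405, H406 and H407, the YDS library H424 and the YS library H427. In choroid plexus 3 libraries, C429 and C430 (YS) and C434 (sham), stood apart on the second component (0.30 to 0.56 against -0.20 to 0.14, 19.9% of the variance). Ift74 had 18.2 to 23.0 CPM in the 5 hippocampal libraries and 4.10 to 16.7 CPM in the other 33. Bbs5 had 11.1 to 13.3 CPM in the 5 and 1.24 to 8.90 CPM in the 33. Ift81, Bbs4, Arl6 and Rpgrip1l lay likewise higher in the 5 without overlap. Of all genes, 8.08% were higher and 2.99% lower in the 5 without overlap, and as the 5 were picked on a component of all genes, these counts describe the libraries and show nothing particular to the members. Leaving out all 8 libraries, the tissue comparison called all 46 members, 41 higher and 5 lower in choroid plexus.

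The question of the infusion experiment was whether serum of young mice, with or without its vesicles, changed the tissues of aged mice. The arms share their libraries pairwise, so the 3 comparisons of a tissue are not independent. In choroid plexus no member was called in any of them, and 0% of all 13662 genes were called in YS against sham, in YS against YDS and in YDS against sham. edgeR on whole reads called no member either, although it called 2.93% of all genes in YS against YDS. At an unadjusted p under 0.05, 0 members passed in YS against sham (2.11% of all genes), 1 in YS against YDS (7.51% of all genes) and 1 in YDS against sham (1.43% of all genes). The fold changes of YS against sham lay between -0.10 and 0.11 over the 46 members, with a median of 0.03, and the medians were -0.01 for YS against YDS and 0.03 for YDS against sham.

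The gene at an unadjusted p under 0.05 was the same in both comparisons, which share the YDS libraries. Traf3ip1, the IFT-B subunit IFT54 that binds microtubules, ranged over 44.6, 51.2 and 54.5 CPM in YS, 49.6, 53.8 and 57.7 CPM in YDS and 44.2, 49.6 and 55.2 CPM in sham choroid plexus. The arms overlapped. Its log2 fold change was -0.10 in YS against YDS (SE 0.04, adjusted p = 0.452 with limma) and 0.13 in YDS against sham (SE 0.04, adjusted p = 1.00). In YS against sham the smallest p was that of Bbs12, with 10.2 ± 0.83 CPM in YS and 9.40 ± 0.61 CPM in sham mice (SD, n = 12 and 8), a log2 fold change of 0.11. Precision differed between the members, since the standard error for YS against sham was 0.39 in Kif3b and 0.34 in Cep290, the members with the largest coefficients of variation in this tissue. With the set of mouse numbers as a term, and within lower- or higher-numbered mice alone, no member was called in any of the 3 comparisons.

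In hippocampus no member was called in any of the 3 comparisons, also with edgeR on whole reads. Of all 14440 genes, 0.0346% were called in YS against sham, 0% in YS against YDS and 0% in YDS against sham. At an unadjusted p under 0.05, 4 members were higher and 1 lower in YS against sham (17.4% of all genes in either direction), 2 higher and 2 lower in YS against YDS (6.29%), and 3 higher and 2 lower in YDS against sham (12.4%). The medians over the members were -0.05, 0.01 and -0.04 in this order.

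Kif3b ranged over 98.3, 121 and 142 CPM in YS and 94.8, 103 and 117 CPM in sham hippocampus (log2 fold change 0.19, SE 0.07, adjusted p = 0.139 with limma). B9d2 ranged over 3.29, 7.23 and 10.2 CPM in YS, 6.13, 9.25 and 11.5 CPM in YDS and 6.28, 8.94 and 11.0 CPM in sham hippocampus. The arms overlapped in both genes. The log2 fold change of B9d2 was -0.36 in YS against sham (SE 0.13, adjusted p = 0.142) and -0.38 in YS against YDS (SE 0.12, adjusted p = 0.737). Ift122, an IFT-A subunit, ranged over 38.9, 42.2 and 49.9 CPM in YS, 35.6, 46.3 and 47.2 CPM in YDS and 33.8, 39.1 and 46.3 CPM in sham hippocampus, and its adjusted p was 0.159 in YS against sham and 0.286 in YDS against sham. Ift88 had a log2 fold change of 0.30 in YS against YDS (adjusted p = 0.744), and Tmem231, a transition zone membrane protein, 0.24 in YDS against sham (adjusted p = 0.319). None of these differences passed the threshold after adjustment over all genes.

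Among lower-numbered hippocampal mice (H401 to H418) alone, 10 members were called in YS against sham, 8 lower and 2 higher, where 25.5% of all genes were called. The lower ones included Ift74 (-1.08), Bbs5 (-1.03), Bbs10 (-0.86) and Cep290 (-0.77), and the higher ones were Ift172 (0.42) and Ift122 (0.27). In YDS against sham of the same mice 7 members were called, all lower, where 12.8% of all genes were called, again with Bbs5 (-1.15), Ift74 (-0.87), Cep290 (-0.86) and Bbs10 (-0.78). Of the 6 shams among them, 3 are the libraries H405, H406 and H407 that stood apart. Without the libraries that stood apart, limma called 0 members among these mice in YS against sham, where 1.62% of all genes were called, and 0 in YDS against sham, where 0% of all genes were called. At an unadjusted p under 0.05, 7 and 3 members passed in these fits. Among higher-numbered mice limma called 0 members and 0% of all genes in both comparisons, and 7 and 2 members passed unadjusted. For the unadjusted counts of these subsets the share of all genes is not given, so they show nothing particular to the members. The median over the members was 0.18 in higher-numbered and -0.17 in lower-numbered mice for YS against sham, and 0.16 in higher-numbered and -0.15 in lower-numbered mice for YDS against sham. Over all genes it was 0.05 in higher-numbered and -0.11 in lower-numbered mice for YS against sham, and 0.05 in higher-numbered and -0.05 in lower-numbered mice for YDS against sham.

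**Figure D4:**
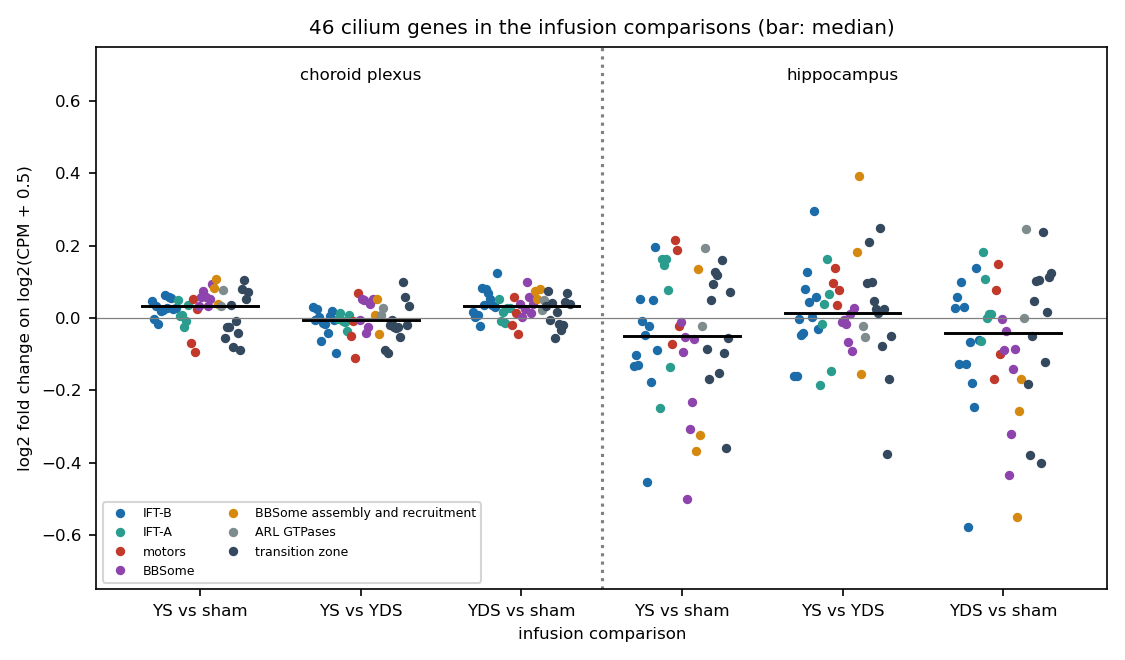
Log2 fold changes of the 46 members (points, coloured by role, with the median as a bar) for YS against sham, YS against YDS and YDS against sham in choroid plexus and in hippocampus, on the scale of log2(CPM + 0.5). The medians lie between -0.05 and 0.03 in all 6 comparisons, and no point was called.

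In the Klotho mice the targeted gene was checked first. Kl had 2.90, 21.2, 23.3 and 18.0 CPM in Klko mice, against 237, 66.6, 62.3 and 155 CPM in WT-y mice. It had 84.7, 54.3, 128, 59.3 and 15.6 CPM in Klhet mice, against 256, 129, 127 and 198 CPM in WT-o mice. Klko and WT-y did not overlap, and Klhet overlapped with WT-o by the value of 128 CPM only. In the brain Kl is made largely in the choroid plexus, and the markers of that epithelium varied between libraries. They summed to 505, 6884, 3831 and 4057 CPM in Klko, 10877, 3501, 3425 and 7901 CPM in WT-y, 6279, 4020, 9063, 4183 and 433.7 CPM in Klhet and 10870, 5748, 4549 and 10169 CPM in WT-o mice. All 15 were lower in Klko than in WT-y mice, with a median log2 fold change of -1.08, and none was called. Markers of striatal neurons summed to 1693, 292, 652 and 2581 CPM in Klko, 341, 1423, 235 and 267 CPM in WT-y mice and 1922 CPM in WT-o 2. All 10 of them were higher in Klko than in WT-y mice, with a median of 1.00, and none was called.

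In Klko mice, 13 members fell against WT-y mice and 0 rose (limma, adjusted p under 0.05), where 6.44% of all genes were called lower and 4.83% higher. In 9 members every Klko library lay below every WT-y library, where 6.65% of all genes did so, and in 1, Mks1, every one lay above, where 5.6% did so. At an unadjusted p under 0.05, 19 members were lower and 4 higher, where 16.3% of all genes were lower and 12.7% higher. The median log2 fold change was -0.17 over the members and -0.02 over all genes. By role, the falls covered all 4 motor genes (median -0.38), 3 of 6 IFT-A genes (-0.36), 3 of 12 IFT-B genes (-0.03), 2 of 12 transition zone genes (-0.13), 1 of 7 BBSome genes (-0.12), and none of the 3 genes of BBSome assembly (-0.07) and of the 2 ARL GTPases (0.01).

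Among the IFT-B genes, Ift172 had 44.7, 42.6, 46 and 48.2 CPM in Klko mice, against 65.9, 56.3, 64.4 and 66.6 CPM in WT-y mice (log2 fold change -0.47, SE 0.08, adjusted p = 0.00497). Ift80, a peripheral subunit mutated in a human skeletal ciliopathy, had 13.5, 15.7, 20.0 and 20.3 CPM in Klko mice, against 29.3, 24.9, 24.8 and 23.8 CPM in WT-y mice (-0.57, SE 0.12, adjusted p = 0.00976). Traf3ip1 had 13.2, 15.7, 11.3 and 12.8 CPM in Klko mice, against 18.7, 16.9, 19.8 and 16.7 CPM in WT-y mice (-0.44, SE 0.12, adjusted p = 0.0257). In all 3 genes the groups were separate. Ift74, which stood out between the tissues, had a log2 fold change of -0.23 that was not called (adjusted p = 0.119).

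Of the IFT-A genes, Ttc21b had 6.49, 6.91, 9.38 and 8.51 CPM in Klko mice, against 12.7, 9.89, 12.5 and 12.1 CPM in WT-y mice (-0.57, SE 0.14, adjusted p = 0.0174). Wdr35 had 32.4, 36.2, 31.7 and 37.8 CPM in Klko mice, against 55.0, 37.8, 48.0 and 45.1 CPM in WT-y mice (-0.41, SE 0.10, adjusted p = 0.0208), with the highest Klko and the lowest WT-y library next to each other. Ift140 had 20.6, 23.3, 22.6 and 26.1 CPM in Klko mice, against 33.7, 22.9, 34.8 and 33.6 CPM in WT-y mice (-0.41, SE 0.11, adjusted p = 0.0256). WT-y 2 lay among the Klko mice in Ift140 and was the lowest of its group in all 3 genes.

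Of the motor genes, Dync2h1 had 18.8, 18.1, 18.1 and 20.5 CPM in Klko mice, against 28.4, 21.0, 27.5 and 26.1 CPM in WT-y mice (-0.43, SE 0.10, adjusted p = 0.0168), without overlap. Kifap3 had 201, 176, 155 and 188 CPM in Klko mice, against 241, 191, 272 and 230 CPM in WT-y mice (-0.37, SE 0.11, adjusted p = 0.0333). Kif3b had 70.5, 76.0, 55.3 and 70.6 CPM in Klko mice, against 105, 69.8, 97.5 and 87.5 CPM in WT-y mice (-0.39, SE 0.11, adjusted p = 0.0337). Both overlapped through WT-y 2 alone. Kif3a averaged 139 ± 17 CPM in Klko and 181 ± 29.1 CPM in WT-y mice (SD, n = 4 each; -0.37, adjusted p = 0.0494), just past the threshold.

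Of the transition zone genes, Rpgrip1l showed the largest fall of all members, with 9.83, 11.2, 14.5 and 14.9 CPM in Klko mice, against 26.6, 20.2, 21.2 and 21.7 CPM in WT-y mice (-0.82, SE 0.14, adjusted p = 0.00497). Cep290 had 6.38, 7.37, 7.10 and 8.597 CPM in Klko mice, against 13.2, 10.0, 10.7 and 12.7 CPM in WT-y mice (-0.63, SE 0.15, adjusted p = 0.0181). Neither gene overlapped. Cc2d2a, a scaffold of the same gate, was also separate between the groups but was not called (adjusted p = 0.148). Mks1 had 7.38, 6.20, 5.83 and 7.37 CPM in Klko mice, against 5.64, 5.00, 4.90 and 5.72 CPM in WT-y mice, a log2 fold change of 0.30 that was not called either (SE 0.15, adjusted p = 0.189). The 1 BBSome gene that fell, Bbs7, a subunit of its propeller core, had 7.96, 8.85, 10.2 and 11.9 CPM in Klko mice, against 16.3, 10.6, 15.1 and 13.2 CPM in WT-y mice (-0.48, SE 0.14, adjusted p = 0.0372), with overlap.

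**Figure D5:**
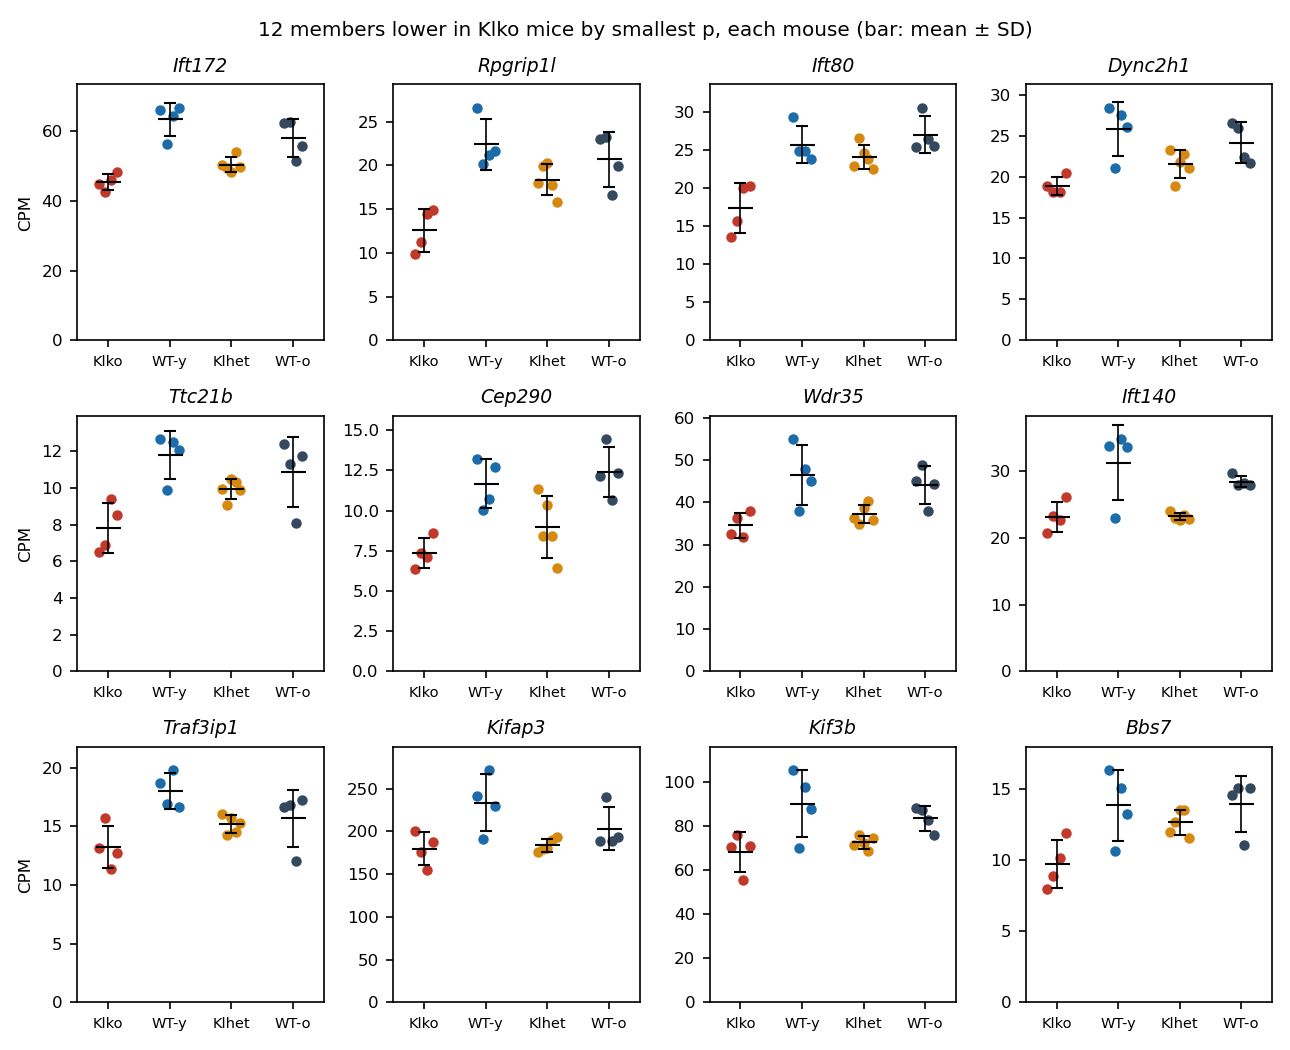
CPM of 12 members in Klko and WT-y mice and in Klhet and WT-o mice (each point 1 mouse, y axes from 0), with a bar for the mean and its SD. In Ift172, Rpgrip1l and Ift80 all Klko points lie below all WT-y points, and the Klhet and WT-o points overlap.

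Ift80, Ift172 and Rpgrip1l were called whichever library of the 2 groups was left out, while the number of members called lay between 3, without WT-y 1, and 18, without WT-y 2, where 3.1% and 25.9% of all genes were called in either direction. It was 5 without Klko 1 (5.69% of all genes), 6 without Klko 3 (5.65%), 4 without WT-y 3 (3.19%) and 8 without WT-y 4 (6.26%). Fitted on the 8 libraries of these groups alone, 0 members and 0.134% of all genes were called. With the mean log2 level of the choroid plexus markers as covariate, 9 members and 6.98% of all genes were called. With that of the striatal markers, 11 members and 10.6% of all genes were called. Without the 4 libraries high in striatal transcripts (Klko 1, Klko 4, WT-y 2 and WT-o 2) 16 members were called, 12 of them among the 13, and 21.8% of all genes. After removal of the length trend, 9 of the 13 were called, and 6.54% of all genes. TMM and RLE factors, both other pseudocounts, the stricter filter and edgeR on whole reads called the same 13, and DESeq2 called these and Ift20, which was higher in Klko mice.

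Of the other genes of the cilium, few were called in Klko mice. Of 12 other IFT, dynein-2 and kinesin-2 genes 1 rose, the dynein-2 intermediate chain Wdr34 (0.49, adjusted p = 0.00882), of 6 other BBS genes 1 fell, Lztfl1, a regulator of BBSome entry (-0.33, adjusted p = 0.0468), and of 23 other transition zone and distal appendage genes none was called. Of 16 ciliary signalling genes the hedgehog target Gli1 rose (0.93, adjusted p = 0.0125) and the ciliary somatostatin receptor Sstr3 fell (-0.78, adjusted p = 0.0232). Of 38 motile cilium genes none was called, and their median was -0.15. Markers of multiciliated and ependymal cells summed to between 78.1 and 145 CPM in Klko and between 107 and 168 CPM in WT-y mice. Of the 21 members with a GTTGCC element 7 fell in Klko mice, and of the 21 without it 5 fell.

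In Klhet mice no member was called against WT-o mice by limma, edgeR or DESeq2, where 0% of all genes were called by limma. At an unadjusted p under 0.05, 10 members were lower and 0 higher, where 7.5% of all genes were lower and 3.8% higher. In 1 member, Ift140, every Klhet library lay below every WT-o library, where 4.56% of all genes did so, and in 1, B9d2, every one lay above, where 2.16% did so. The median log2 fold change was -0.15 over the members and -0.06 over all genes. Tctn2 had 27.7, 24.3, 33.4, 26.6 and 20.9 CPM in Klhet mice, against 39.3, 33.8, 31.1 and 35.7 CPM in WT-o mice (-0.40, SE 0.12, adjusted p = 0.406). Cep290 had 11.4, 8.43, 10.3, 8.39 and 6.43 CPM in Klhet mice, against 12.1, 14.5, 10.7 and 12.3 CPM in WT-o mice (-0.46, SE 0.14, adjusted p = 0.406). Both overlapped. Ift140 had 24.0, 23.0, 22.7, 23.4 and 22.8 CPM in Klhet mice, against 29.7, 27.9, 28.2 and 27.8 CPM in WT-o mice, a narrow spread in both groups (-0.29, SE 0.10, adjusted p = 0.406). Several marker lists moved with the members, none of their genes called. Beyond fits with the choroid plexus or the striatal markers as covariate, the part of these lists in the result was not tested. Markers of choroid plexus epithelium were lower in Klhet mice in 15 of 15 genes (median -1.13). With their mean log2 level as covariate the median over the members was -0.08. Markers of multiciliated and ependymal cells were lower in 12 of 13 (median -0.36, 4 at an unadjusted p under 0.05) and the motile cilium genes in 35 of 38 (median -0.28, 9 at an unadjusted p under 0.05), both medians further below 0 than that of the members. Markers of striatal neurons were lower in 10 of 10 (median -0.87) and those of oligodendrocytes in 6 of 6 (median -0.42).

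Whether the effect of the knockout differed from that of the heterozygous state was tested as a difference of the 2 fold changes, which also sets mice of 2 months against mice of 9 months, so that dose of the gene and age cannot be told apart. No member was called by limma, edgeR or DESeq2, where 0% of all genes were called by limma. At an unadjusted p under 0.05, 5 members had a more negative and 1 a more positive fold change in the knockout, where 8.87% of all genes passed in either direction. The difference was -0.66 in Rpgrip1l (-0.82 in Klko and -0.16 in Klhet mice, adjusted p = 0.399), -0.27 in Ift172 and -0.41 in Ift80. It was 0.62 in Mks1 (0.30 in Klko and -0.32 in Klhet mice, adjusted p = 0.432). The falls in Klko mice are thus not shown to be absent from Klhet mice.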

How the data were processed

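Reads of 89 libraries (paired-end NovaSeq) were aligned by the authors to mm10 with Subread and counted per gene with featureCounts, without a stated strand setting, so overlapping genes can share reads. The authors deposited CPM, scaled to each library's own total without TMM factors. They also deposited fold changes and p-values of their own comparisons (made with edgeR), which were not used. Low values were whole reads within 0.05 reads, and reads per library were recovered from them. Of the symbols, 23, 19 and 21 turned into dates were restored in the Klotho, choroid plexus and hippocampal tables, and 3 repeated symbols of the Klotho table were left out.

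limma 3.58.1 with trend on log2(CPM + 0.5) in R 4.3.3 was the main test, since the tables hold CPM, with all 17 Klotho libraries, all 34 choroid plexus libraries or all 38 hippocampal libraries in a fit. The tissue fit used 72 libraries and 12609 genes with arm as covariate. All p-values were two-sided and adjusted by the Benjamini-Hochberg method at 0.05. edgeR 4.0.16 and DESeq2 1.42.0 were run on the recovered reads. Alternatives were TMM and RLE factors, pseudocounts of 0.1 and 1, a filter at 1 CPM and the mean log2 level of a marker list as covariate. Others were a replicate block, fits of only the groups compared, removal of the length trend and leaving out libraries. The mice were also split by mouse number (labels up to C418 and H418, and above). Mouse numbers pair the tissues, since both came from 1 animal. Klotho replicate numbers do not pair the mice (correlations of deviations -0.483 to 0.016). Exon lengths are merged exons of GENCODE on GRCm38. The members and lists were chosen with earlier results of these data known. Values were named for all 13 members called in Klko against WT-y mice and for the 8 largest excesses and 4 largest deficits of the tissue comparison. Where none was called, the members with the smallest p were named. Some others were named after their values were seen. The steps were tested on simulated data.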

Additional observations from a re-analysis of the deposited data

Results flagged for a closer look

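In groups of 4 to 10 libraries, the values of named members and the marker sums of Klotho mice were searched for 1 library far from the rest of its group by Dixon's test, 84 groups in all. Chance flags about 1 in 20 groups, and 8 were found. Ift140 was 22.9 CPM in WT-y 2, against 33.6 to 34.8 CPM in the other WT-y mice. Kif3a was 189 CPM and Kifap3 241 CPM in WT-o 2, against 146 to 152 CPM and 189 to 194 CPM in the other WT-o mice. In the same 2 libraries the summed striatal markers were 1423 CPM (WT-y 2, others 235 to 341 CPM) and 1922 CPM (WT-o 2, others 344 to 366 CPM). Their part in the values of these members was not tested. Bbs7 was 11.0 CPM and Traf3ip1 12.1 CPM in WT-o 3, against 14.5 to 15.0 CPM and 16.6 to 17.2 CPM in the other WT-o mice. The markers of multiciliated and ependymal cells summed to 72.3 CPM in Klhet 5, against 128 to 144 CPM in the other Klhet mice.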

How the results depend on the processing

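For Klko against WT-y the 13 members called became 6 with the replicate number as a replicate block. The 6 were Ift80, Ift172, Ttc21b, Dync2h1, Rpgrip1l and Cep290, but the replicate numbers do not pair the mice. The 13 became 3 to 18 with single libraries left out and 0 in a fit of the 2 groups alone. In that last fit fewer samples estimate the spread, and the Klhet and WT-o mice do not enter it. The median coefficient of variation over the members was 12.5% in Klko and 12.7% in WT-y mice. It was 8.22% in Klhet and 10.7% in WT-o mice. Why the calls were lost was not tested. In hippocampus, limiting the mice to those labelled up to H418 gave 10 members in YS against sham and 7 in YDS against sham, in place of 0. Between the tissues, Bbs4 turned to 0.10 with the length trend removed and Kif3b to 0.33 in mice labelled from C419 and H419 on; the cause was not tested. The paired fit of the tissues changed no call but that of Kif3b. Under the other alternatives 121 counts of called members equalled the main count or stayed within 1.5 times it. These include the comparisons in which the count was 0 in both fits. Members named in a comparison kept direction and stayed called or uncalled in 569 cases outside leave-one-out. There 40 lost the call, 2 gained it and 2 changed direction. With single libraries left out, 87 cases kept both and 44 lost the call. The kept cases include members that were never called. Medians over the members moved by more than the spread between replicates in 8 fits. They ranged over 1.15 to 1.62 for the tissues, -0.24 to -0.11 for Klko mice and -0.19 to -0.07 for Klhet mice. Infusion medians changed sign between fits, ranging in hippocampus over -0.17 to 0.18 for YS against sham, -0.15 to 0.16 for YDS against sham and -0.01 to 0.03 for YS against YDS, and in choroid plexus over -0.01 to 0.04 for YS against sham and -0.06 to 0.02 for YS against YDS. YDS against sham in choroid plexus stayed at or above 0, up to 0.06. Splits by mouse number, the fits without the libraries that stood apart and the GTTGCC element were chosen after the data were seen. Members at a few CPM, such as Bbs10 and Mks1 in hippocampus, rest on the fewest reads.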
